A study of Mus musculus with 2 samples.

Results

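The 33 genes described here encode neuropeptide precursors, the granins that share their vesicles, and the proteins that cut and finish them. They were chosen by symbol from a fixed list: the symbols stand in the transcript identifiers of the second of 2 deposited quantifications, and were joined to the gene tables by gene identifier. All 33 were found among 55536 annotated genes. By role they comprised 21 peptide precursors, 1 binding protein (Crhbp), 6 granins and 5 processing genes.

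Total RNA was sequenced from the hippocampus of female B6CASTF1/J mice, hybrids of C57BL/6J and CAST/EiJ parents, at an age of 14 days. The series held 1 group of 2 libraries, called replicates 1 and 2, each made from 300 ng of RNA with ERCC spike-ins, which are synthetic RNAs added as a standard. No treatment, transgene or second genotype was recorded. Each library lists 3 females, and both carry the same donor identifier. The labels name a layer of the hippocampus without saying which, and whether the females were combined before or after extraction is not given. Of 11 pyramidal neuron markers 11 were detected, beside 58.6% of nuclear protein-coding genes. Among them Slc17a7 had 710 TPM in replicate 1 and 672 TPM in replicate 2. Replicate 1 stood apart in choroid plexus message, and values are given per library below. The labels call the libraries biological replicates, so the spread below is the spread between these libraries and may in part be technical.

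Neuropeptides are cut from larger precursors inside dense-core vesicles, which form at the trans-Golgi network and release their cargo after sustained calcium entry. Prohormone convertases cut after pairs of basic residues, carboxypeptidase E trims the exposed basic residues, and peptidylglycine alpha-amidating monooxygenase turns a terminal glycine into an amide. In the hippocampus many of these peptides come from GABAergic interneurons, while dynorphin is typical of dentate granule cells and cholecystokinin is made by interneurons and by pyramidal cells.

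The paired basic sites can be read from the coding sequences, here of the GENCODE M21 transcript that led each gene in the first quantification and had a complete coding sequence. Short stretches are shown to compare close relatives or, for the prodynorphin and tachykinin precursors, to show basic pairs that the processing enzymes meet. Somatostatin (Sst) and cortistatin (Cort), paralogous peptides that bind the same receptors, share a core of 6 codons in which 16 of 18 bases were identical. The stretches shown for both hold no basic pair, as the 1 pair in each coding sequence lies outside them. The core is in capitals, on the coding strand, in mm10. The Sst stretch lies at chr16:23889732-23889767 (minus strand, codons 105 to 116 of Sst-201, the end of the coding sequence), and the Cort stretch at chr4:149125267-149125305 (minus strand, codons 97 to 109 of Cort-201, likewise the end).
Sst: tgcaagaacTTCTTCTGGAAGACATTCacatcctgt
Cort: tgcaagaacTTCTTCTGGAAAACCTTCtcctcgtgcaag

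Prodynorphin (Pdyn), the precursor of the kappa opioid peptides, held 3 copies of the leucine-type opioid core. Each copy, in capitals, had a pair of lysine or arginine codons directly before and directly after it. On the minus strand they lie at chr2:129688232-129688258, chr2:129688124-129688150 and chr2:129688067-129688093, each within 1 exon of Pdyn-201.
Pdyn copy 1: aaacgcTATGGCGGCTTTTTGcgcaaa
Pdyn copy 2: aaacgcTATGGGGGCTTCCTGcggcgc
Pdyn copy 3: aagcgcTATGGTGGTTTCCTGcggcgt

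The tachykinin precursors show the amidation signal, a glycine codon followed by a basic pair. Tac1, which encodes substance P and neurokinin A, held 2 tachykinin ends in Tac1-203 (plus strand, chr6:7556741-7556773 and chr6:7559107-7559139). Tac2, which encodes neurokinin B, held 1 (plus strand, chr10:127729122-127729154). The 5 codons of the shared tachykinin end are in capitals, with 3 codons on each side.
Tac1 first end: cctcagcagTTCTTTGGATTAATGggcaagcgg
Tac1 second end: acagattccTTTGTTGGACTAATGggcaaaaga
Tac2 end: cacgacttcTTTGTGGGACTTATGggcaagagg

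Precursors differed in how many pairs of adjacent lysine or arginine codons they held. Overlapping pairs were each counted, so a count is not a number of separate cleavage sites. Proenkephalin (Penk) had 12 pairs of adjacent lysine or arginine codons in 268 codons, with 6 methionine-type and 1 leucine-type opioid cores. Thyrotropin-releasing hormone (Trh) also had 12 pairs, and 5 of them followed a glycine codon. Parathyroid hormone-like hormone (Pthlh) had the most among the precursors, 14 in 175 codons, of which 3 were lysine followed by arginine. At the other end Sst, Cort and gastrin-releasing peptide (Grp) had 1 pair each. Among the granins, chromogranin B (Chgb) had the most pairs, 23 in 677 codons, and 23.2% of its codons were for aspartate or glutamate. The acidic share was 21.8% in Chga, 20.3% in Vgf, 20.0% in Scg3, 19.1% in Scg2 and 14.6% in Scg5.

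As a group these messages were mostly detected and covered a broad range. Levels are in TPM, an abundance that is corrected for transcript length so that genes can be compared, though the 2 quantifications corrected length by different amounts. Detection was taken as 1 TPM or more in each of the libraries. Of the 33 genes 30 were detected (90.9%), beside 12892 of 22015 nuclear protein-coding genes (58.6%). The members were chosen with earlier results of these data known, so their share does not test whether such genes are commonly detected. Of 35 neuropeptide genes listed outside the members, 7 were detected. The median of the 33 gene means was 6.08 TPM, beside 3.53 TPM over all nuclear protein-coding genes and 14.9 TPM over the detected ones. The medians of the 33 genes within each library were 7.28 TPM in replicate 1 and 6.18 TPM in replicate 2 (SD 0.778, n = 2). The means ran from 0.345 TPM for Nppa to 1384 TPM for Cpe, a 4011-fold span. The undetected genes were Cartpt, Trh and Nppa. Together the 33 genes held 0.371% of gene counts in replicate 1 and 0.375% in replicate 2.

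**Figure D1:**
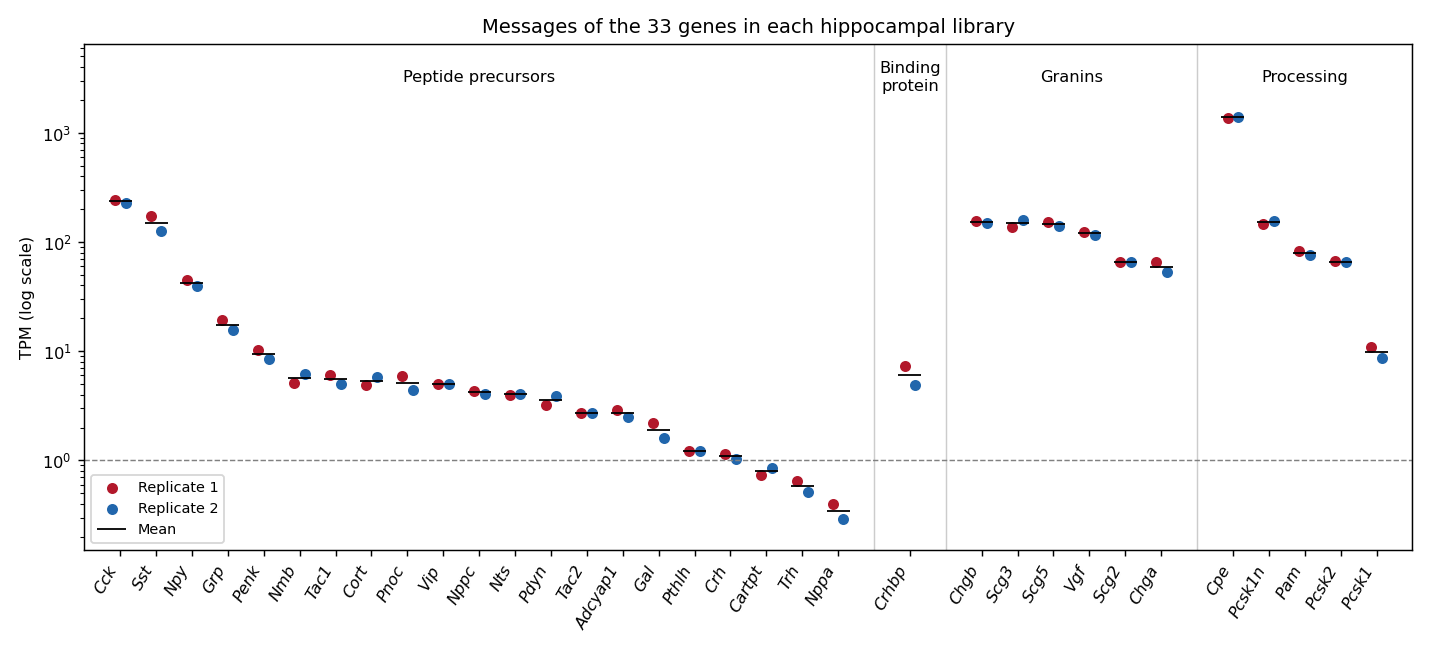
TPM of each of the 33 genes (log axis) in replicate 1 (red) and replicate 2 (blue), grouped by role and ordered by mean (black bar); the dashed line marks 1 TPM. All 6 granins lie between 53.3 and 160 TPM in both libraries, whereas the 21 peptide precursors spread from 0.290 to 243 TPM.

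Of the peptide precursors, 3 made up most of the message. Cholecystokinin (Cck), a peptide of basket interneurons and of pyramidal cells, had 243 TPM in replicate 1 and 228 TPM in replicate 2. Sst, the peptide of dendrite-targeting interneurons, had 171 and 127 TPM in the same order, the widest absolute gap between the libraries among the precursors. Neuropeptide Y (Npy), made by several interneuron classes, had 45.2 TPM in replicate 1 and 39.3 TPM in replicate 2. In TPM each was lower in replicate 2, and the ranges of the 3 genes did not overlap one another. With the TMM scaling described below, replicate 1 over replicate 2 was 1.26 for Sst (95% counting interval 1.18 to 1.34). It was 1.00 for Cck (0.953 to 1.05) and 1.07 for Npy (0.939 to 1.23), and both of these intervals held 1. Together they held 85.2% of the summed precursor TPM in replicate 1 and 84.3% in replicate 2. Cck over Npy was 5.60 ± 0.30 and Sst over Npy 3.51 ± 0.390 (ratios of TPM, SD, n = 2). In bulk RNA, fewer cells of a type and less RNA per cell cannot be told apart.

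Several other precursors were far lower. Vasoactive intestinal peptide (Vip), which marks interneurons that inhibit other interneurons, had 5.05 TPM in replicate 1 and 5.00 TPM in replicate 2. Cort had 4.92 and 5.78 TPM in those libraries. Sst thus exceeded Cort 34.8-fold in replicate 1 and 22-fold in replicate 2, although their cores are nearly the same sequence, and it exceeded Vip 33.9-fold and 25.4-fold. Adcyap1, the precursor of the pituitary adenylate cyclase-activating peptide and a relative of Vip, had 2.90 TPM in replicate 1 and 2.5 TPM in replicate 2.

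The opioid family lay in a narrow low range. Penk, the enkephalin precursor, had 10.2 TPM in replicate 1 and 8.52 TPM in replicate 2. Pnoc, the nociceptin precursor, had 5.88 and 4.45 TPM, and Pdyn had 3.25 and 3.87 TPM, in the same order. Penk led in both libraries, and the direction of the replicate gap was opposite in Pdyn. Penk over Pdyn was 2.67 ± 0.656 and Pnoc over Penk 0.550 ± 0.0395 (SD, n = 2). Of the exon bases of Penk, 14.3% are overlapped on the other strand by A830012C17Rik, which had 4 counts in replicate 1 and 0 in replicate 2.

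Tachykinins and bombesin-like peptides followed. Tac1 had 6.01 TPM in replicate 1 and 5.04 TPM in replicate 2, and Tac2 had 2.74 and 2.69 TPM, so that Tac1 was about double Tac2 (ratio 2.03 ± 0.226, SD, n = 2). Grp, a bombesin-like peptide, ranked directly after Npy, with 19.3 TPM in replicate 1 and 15.6 TPM in replicate 2. Its relative neuromedin B (Nmb) had 5.12 and 6.18 TPM, a ratio of Nmb to Grp of 0.331 ± 0.0923. Nmb is uncertain, because 20.6% of its exon bases lie in Sec11a on the same strand, which had 564 counts in replicate 1 and 483 in replicate 2 against 63 and 72 for Nmb.

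Peptides better known from other brain regions or organs ran from 4.31 TPM to below the detection threshold. Neurotensin (Nts) had 4.0 TPM in replicate 1 and 4.10 TPM in replicate 2. C-type natriuretic peptide (Nppc) had 4.31 and 4.10 TPM in the same order. Galanin (Gal) had 2.22 TPM in replicate 1 and 1.60 TPM in replicate 2, from 35 and 25 counts. Pthlh had 1.21 and 1.22 TPM. Corticotropin-releasing hormone (Crh), the hypothalamic stress peptide that hippocampal interneurons also make, had 1.15 TPM in replicate 1 and 1.04 TPM in replicate 2, both just above the threshold. Below it were Cartpt, the precursor of the cocaine- and amphetamine-regulated transcript peptide (0.730 and 0.860 TPM), Trh (0.650 and 0.510 TPM) and Nppa, the atrial natriuretic peptide (0.400 and 0.290 TPM). These 3 rested on 5 to 19 counts per library. Nppa is also uncertain, since 61.5% of its exon bases are overlapped by the antisense gene Gm13054, which had 7 and 10 counts beside 7 and 5 for Nppa.

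Crhbp, a secreted protein that binds and sequesters Crh and is made by subsets of interneurons, exceeded its ligand. It had 7.28 TPM in replicate 1 and 4.87 TPM in replicate 2, and Crh over Crhbp was 0.186 ± 0.0393 (SD, n = 2).

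The granins, acidic vesicle proteins that aggregate cargo and are themselves cut into peptides, formed a compact and abundant group. All 6 were detected, and their summed level was 702 TPM in replicate 1 and 687 TPM in replicate 2, beside 540 and 468 TPM for the 21 peptide precursors. Chgb had 157 TPM in replicate 1 and 151 TPM in replicate 2. Chga, its paralog, had 65.8 and 53.3 TPM, and Chgb over Chga was 2.61 ± 0.305. Secretogranin III (Scg3), which tethers granins to vesicle membrane, had 138 TPM in replicate 1 and 160 TPM in replicate 2. Scg5, a chaperone that keeps the convertase Pcsk2 inactive until it reaches the vesicle, had 151 and 141 TPM. Secretogranin II (Scg2) had 66.2 TPM in replicate 1 and 65.8 TPM in replicate 2. Vgf, a neurotrophin-induced precursor of several peptides, had 124 and 117 TPM. The order by mean was Chgb, Scg3, Scg5, Vgf, Scg2 and Chga; the ranges of Chgb, Scg3 and Scg5 overlapped. Vgf lay below all 3, and the highest value of Chga (65.75 TPM) came close to the lowest of Scg2 (65.76 TPM).

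Among the processing genes, the trimming enzyme far outweighed the convertases. Cpe, carboxypeptidase E, had 1366 TPM in replicate 1 and 1401 TPM in replicate 2 and held rank 4 among nuclear protein-coding genes. Pam, the amidating enzyme, had 83.6 and 76.6 TPM. Pcsk2, the convertase associated with the late steps, had 66.4 TPM in replicate 1 and 66.1 TPM in replicate 2, and Pcsk1, its relative, had 11.0 and 8.71 TPM. Pcsk2 exceeded Pcsk1 6.05-fold in replicate 1 and 7.59-fold in replicate 2. Pcsk1n, the proSAAS precursor that inhibits Pcsk1, had 147 TPM in replicate 1 and 157 TPM in replicate 2, so Pcsk1 stood at 0.0650 ± 0.0133 of its inhibitor. Pcsk2 stood at 0.455 ± 0.0217 of its chaperone Scg5 in TPM. In expected counts, which also grow with transcript length, Pcsk2 was instead 1.92 times Scg5. Pcsk1, Pcsk2, Cpe and Pam summed to 2.83 times the precursor TPM in replicate 1 and 3.32 times in replicate 2, and to 0.311 times without Cpe.

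Replicate ratios were taken as replicate 1 over replicate 2 from expected counts, with TMM scaling (a factor that centres most genes on equal levels), for genes whose mean reached 1 TPM and whose summed counts reached 50. A single library per side allows no test, and the intervals cover counting error only (exact binomial, 95%). Of the 33 genes 30 passed the filter. At least 1.5-fold apart were 0 of the 30, against 4.17% of all 14715 genes that passed (2.73% higher in replicate 1 and 1.45% higher in replicate 2). The counting interval left out a ratio of 1 for 11 of the 30, which is near the 38.4% of all genes that passed. All 30 lay within the central 95% of log2 ratios over those genes, which ran from -0.49 to 0.61, and their median log2 ratio was -0.02.

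**Figure D2:**
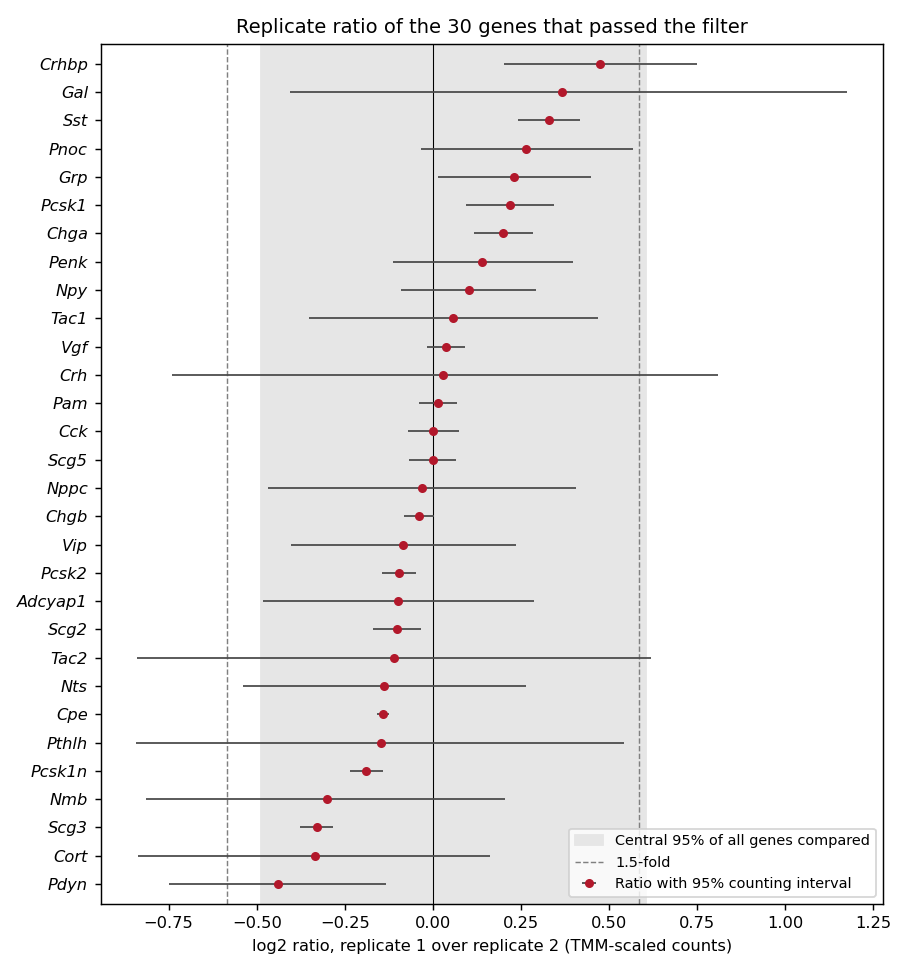
log2 ratio of replicate 1 over replicate 2 with its 95% counting interval for the 30 genes that passed the filter; grey marks the central 95% of all 14715 genes and dashed lines mark 1.5-fold. No point lies beyond 1.5-fold, from Crhbp (ratio 1.39) at the top to Pdyn (ratio 0.738) at the bottom.

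Of the 11 genes, 5 were higher in replicate 1 with this scaling. These were Crhbp (ratio 1.39, interval 1.15 to 1.68), Sst (1.26, 1.18 to 1.34), Grp (1.17, 1.01 to 1.36), Pcsk1 (1.16, 1.07 to 1.27) and Chga (1.15, 1.08 to 1.22). The other 6 were lower in replicate 1: Pdyn (0.738, 0.595 to 0.912), Scg3 (0.795, 0.769 to 0.822), Pcsk1n (0.877, 0.849 to 0.906), Cpe (0.906, 0.896 to 0.916), Scg2 (0.932, 0.889 to 0.977) and Pcsk2 (0.936, 0.905 to 0.968). The calls of Scg2 and Pcsk2 rest on the scaling: both intervals held 1 when total gene counts or ERCC counts were used. With total gene counts 15 of 30 intervals left out 1 (11 higher and 4 lower in replicate 1), and with ERCC counts 12 did (8 higher and 4 lower). Sst, Chga, Pcsk1, Crhbp and Grp stayed higher, and Pdyn, Scg3, Cpe and Pcsk1n lower, in replicate 1 under each of the 4 scalings of the first quantification.

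Markers of other cells moved between the libraries at the same time. Their detection counts stand beside 58.6% of nuclear protein-coding genes detected. The 23 interneuron genes listed outside the members had a sum of 540 TPM in replicate 1 and 489 TPM in replicate 2, 22 of them were detected, 0 of the 22 that passed the filter were 1.5-fold apart, and their median log2 ratio was 0.12. The 10 genes listed for dentate granule and mossy cells summed to 178 and 188 TPM, 3 of the 9 that passed were at least 1.5-fold higher in replicate 2 (against 1.45% of all genes), and the median log2 ratio was -0.24. Prox1, the transcription factor of granule cells, had 45.2 TPM in replicate 1 and 55.6 TPM in replicate 2. The list did not move as a whole: of the 9 that passed, 2 were higher in replicate 1, Calb2 (ratio 1.08) and Drd2 (ratio 1.22). Prox1 and Calb2 stand in both the interneuron and the dentate list, so the 2 sums share these genes. All 8 astrocyte genes were detected and summed to 1882 and 2197 TPM, with a median log2 ratio of -0.30. The 9 choroid plexus genes, none at 0, had a sum of 1440 TPM in replicate 1 but 10.9 TPM in replicate 2, led by Ttr with 1375 and 5.62 TPM. Of 12 hypothalamic genes 1 was detected, and the list summed to 4.84 and 3.59 TPM, with Oxt, Sim1, Rax and Fezf1 at 0 in both libraries of the first quantification. In the second, Oxt was listed at 1.12 TPM in replicate 1 and 1.44 TPM in replicate 2, and of these 4 genes Fezf1 was the one at 0 in both. The part of these shifts in the ratios of Sst, Crhbp, Pdyn and the other members was not tested.

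For receptors, 24 of 39 listed genes were detected, beside 58.6% of nuclear protein-coding genes. Of 25 that passed the ratio filter, 3 (Trhr, Oprm1 and Nmbr) were at least 1.5-fold higher in replicate 1 and 0 in replicate 2, against 2.73% and 1.45% of all genes. Of 19 precursors paired with a receptor by textbook pharmacology, 17 were detected, and for 12 of these at least 1 receptor was also detected. For Pdyn, Tac1, Tac2 and Nmb the pairing held 1 receptor each (Oprk1, Tacr1, Tacr3 and Nmbr), and any other receptor was not counted. Detected without a detected receptor of this pairing were Pdyn, Tac1, Tac2, Gal and Nmb, and for Nppa and Trh only a receptor was detected. This count of 5 depends on the library and the quantification. In replicate 1 alone it was 1 (Gal), since Oprk1, Tacr1, Tacr3 and Nmbr each passed 1 TPM there, and in replicate 2 alone it was 5. In the second quantification it was 3 (Pdyn, Tac2 and Gal).

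**Figure D3:**
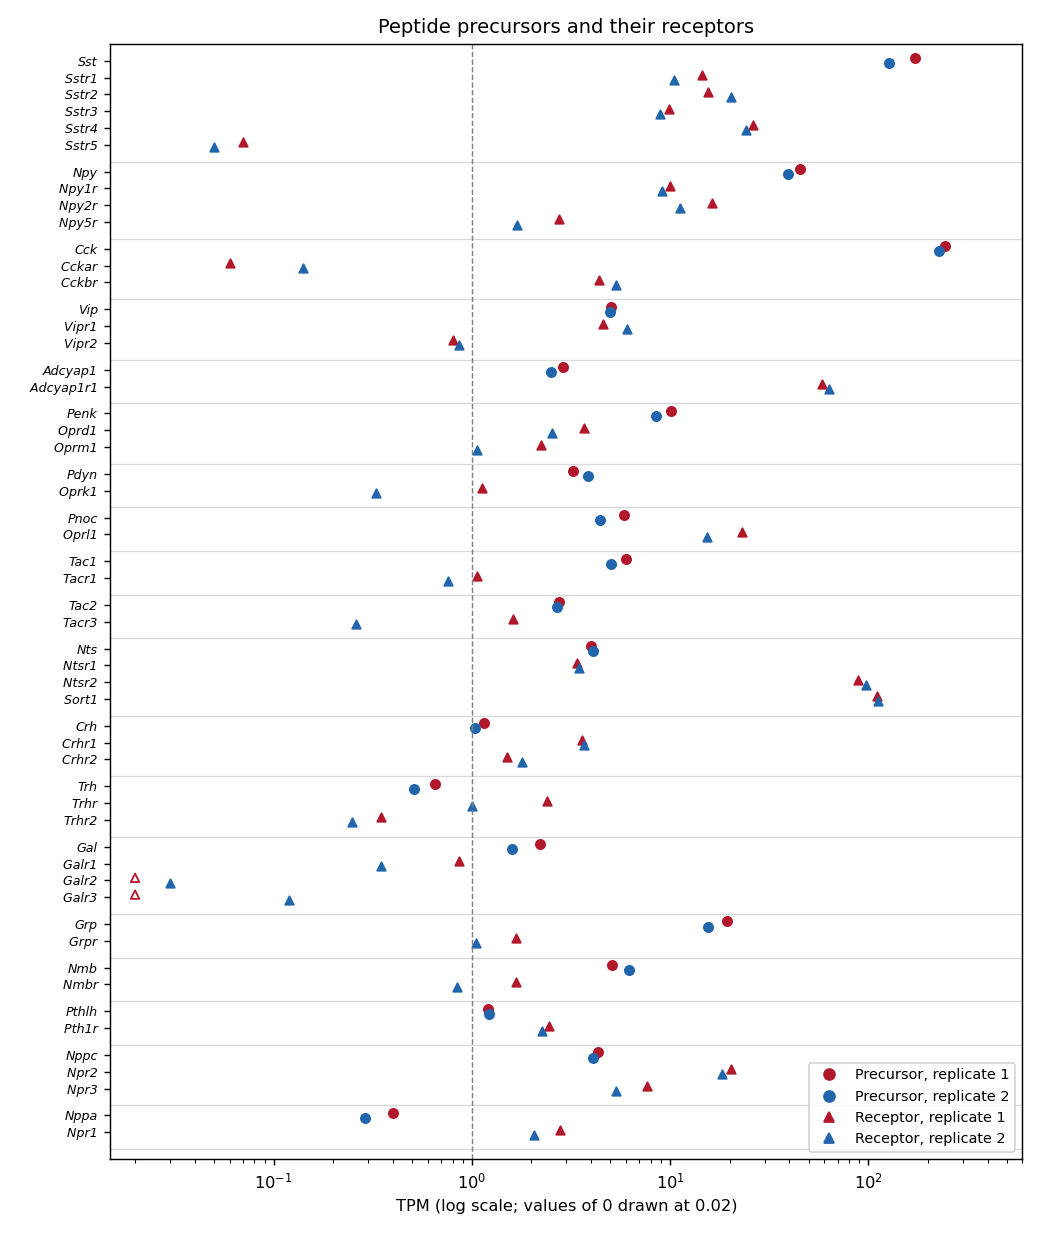
TPM (log axis) of 19 peptide precursors (circles) with their receptors (triangles) indented in the rows beneath each, in replicate 1 (red) and replicate 2 (blue); hollow symbols mark values of 0 and the dashed line 1 TPM. For Nts, Adcyap1 and Nppc the leading receptor lies above the precursor, and for Cck, Sst and Npy below it.

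The 3 highest receptors belonged to low precursors. Sort1, sortilin, a sorting receptor that also binds Nts, had 111 TPM in replicate 1 and 112 TPM in replicate 2. Ntsr2, an Nts receptor known from astrocytes, had 89.1 and 97.0 TPM, against 4.0 and 4.10 TPM for Nts itself. Adcyap1r1, the receptor of the Adcyap1 peptide, had 58.3 TPM in replicate 1 and 63.2 TPM in replicate 2. Other receptors also exceeded their precursors: Npr2, the guanylyl cyclase that binds the Nppc peptide, had 20.3 and 18.3 TPM, and Oprl1, the nociceptin receptor, had 23.0 and 15.3 TPM.

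Receptors of the abundant precursors were lower. Of the somatostatin receptors, Sstr4 had 26.3 TPM in replicate 1 and 24.3 TPM in replicate 2, Sstr2 15.5 and 20.3, Sstr1 14.4 and 10.4, and Sstr3 9.93 and 8.87 in the same order. The 5 together summed to 66.3 and 64.0 TPM, while Sstr5 alone was not detected. Of the Npy receptors, Npy2r led with 16.3 TPM in replicate 1 and 11.2 TPM in replicate 2, ahead of Npy1r with 10.04 and 9.08 TPM. For Cck, the most abundant precursor, Cckbr had 4.40 and 5.37 TPM and Cckar was not detected. Oprk1, the kappa receptor to which the Pdyn peptides bind, had 1.12 TPM in replicate 1 and 0.330 TPM in replicate 2. Tacr3, the receptor of neurokinin B, had 1.61 and 0.260 TPM, from 135 and 22 counts. Both lay above the detection threshold in replicate 1 and under it in replicate 2, both missed the ratio filter, and both were picked out after their values were seen.

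The other detected receptors were low. For peptides that act through G proteins, Vipr1 (a Vip receptor) had 4.59 TPM in replicate 1 and 6.07 TPM in replicate 2, Crhr1 3.59 and 3.67, Crhr2 1.5 and 1.79 (both Crh receptors), Ntsr1 3.41 and 3.49, Npy5r 2.75 and 1.69, and Pth1r, which binds the Pthlh product, 2.45 and 2.27. The opioid receptors Oprd1 and Oprm1, at which the enkephalins act, had 3.67 and 2.55 TPM and 2.23 and 1.06 TPM in the same order. Grpr had 1.68 TPM in replicate 1 and 1.05 TPM in replicate 2, and Trhr, the receptor of Trh, 2.40 and 1.0 TPM. Npr3, the natriuretic peptide clearance receptor, had 7.63 and 5.36 TPM, and Npr1, the cyclase that binds the Nppa peptide, had 2.80 and 2.07 TPM.

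The transcript tables add which form of each message was read. The 33 genes had 96 annotated transcripts, and 10 genes had a single transcript. Of the 23 with several, 17 had the same leading transcript in both quantifications and 6 (Cck, Pnoc, Tac1, Tac2, Pthlh and Vgf) had another. In Tac2, Pthlh and Vgf the rival leaders share 1 coding sequence. For Cck they do not: Cck-201, a complete message of 691 bases, took 92.8% of gene TPM in replicate 1 and 90.9% in replicate 2 in the first quantification, but 20.8% and 23.7% in the second. There the 478-base Cck-205, whose annotated coding part has 125 bases, led with 41.8% and 39.2%. Vgf-201 took 74.6% and 69.4% in the first quantification and 9.71% and 7.60% in the second, in which Vgf-204 led.

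**Figure D4:**
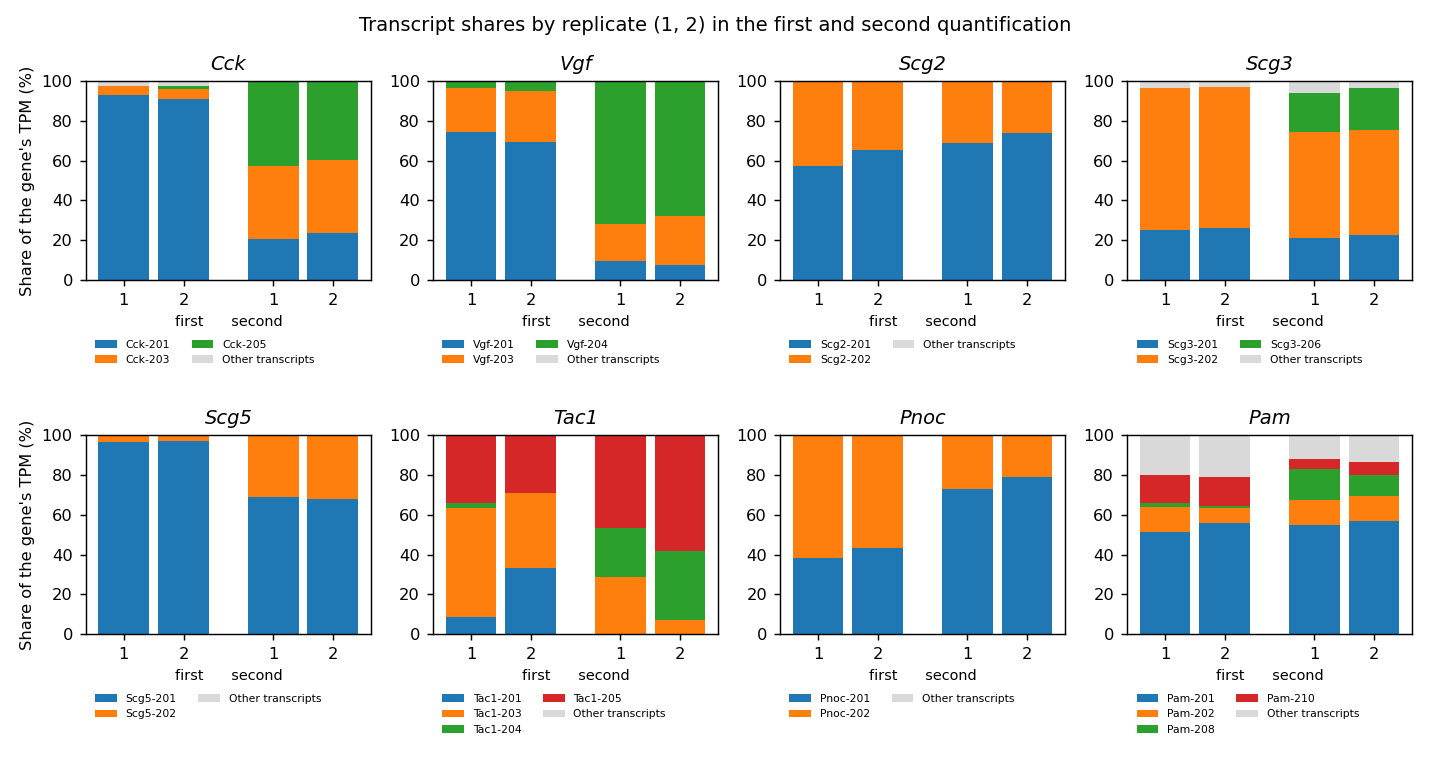
Share of gene TPM (%) taken by each transcript of 8 genes; in each panel the left pair of bars is replicates 1 and 2 in the first quantification and the right pair the same in the second. Bars of the same pair are close for all but Tac1, while Cck, Vgf, Tac1 and Pnoc change leading transcript between pairs. The leading transcripts of Scg5 and Scg3 stay the same but take a smaller share in the second quantification.

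Shares of forms that could alter the protein were less stable for some genes than for others. Pam-201, the longest coding form of the amidating enzyme (2937 coding bases), took 51.5% in replicate 1 and 55.6% in replicate 2 in the first quantification, and 54.7% and 56.8% in the second. Pam-210, with a shorter coding sequence of 2619 bases, took 14.0% and 14.7%, then 4.72% and 6.53%. For Scg2, the shorter form Scg2-202 (1731 coding bases against 1851 in Scg2-201) took 42.7% and 34.8%, then 31.4% and 26.1%. Tac1-203 and Tac1-205 encode precursors of different length and changed places, with Tac1-203 at 54.8% and 37.5% in the first quantification and 28.6% and 7.30% in the second. Transcripts not classed as protein coding were a larger part in the second quantification for Scg5 (30.96% and 32.1%, against 3.29% and 3.14% in the first) and Scg3 (23.4% and 22.4%, against 1.73% and 0.640%). This part was also larger in other genes, as in Cpe (13.2% and 14.6%, against 1.45% and 1.18%), Pam, Adcyap1 and Tac2. For Nmb and Pcsk1 it was smaller in both libraries.

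Gene levels nearly kept their order between the quantifications, but in TPM 32 of 33 moved beyond the replicate SD. Because the second gave nuclear protein-coding genes 74.0% of TPM in replicate 1 and 70.8% in replicate 2, against 45.0% and 42.9% in the first, levels were rescaled to those genes. The second over the first was then 1.52 for Cck, the highest, followed by Scg5 at 1.32, Npy at 1.24 and Tac2 at 1.24, and 0.640 for Adcyap1, the lowest. The effective length behind TPM was a median of 99 bases below the full length in the first, over longer genes. In the second it was 343 bases below in replicate 1 and 346 in replicate 2, over longer transcripts. The part of this difference in these shifts was not tested. Across the 33 genes, which are not independent replicates, the rank correlation was 0.991. Cpe and Cck ranked first and second in both.

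**Figure D5:**
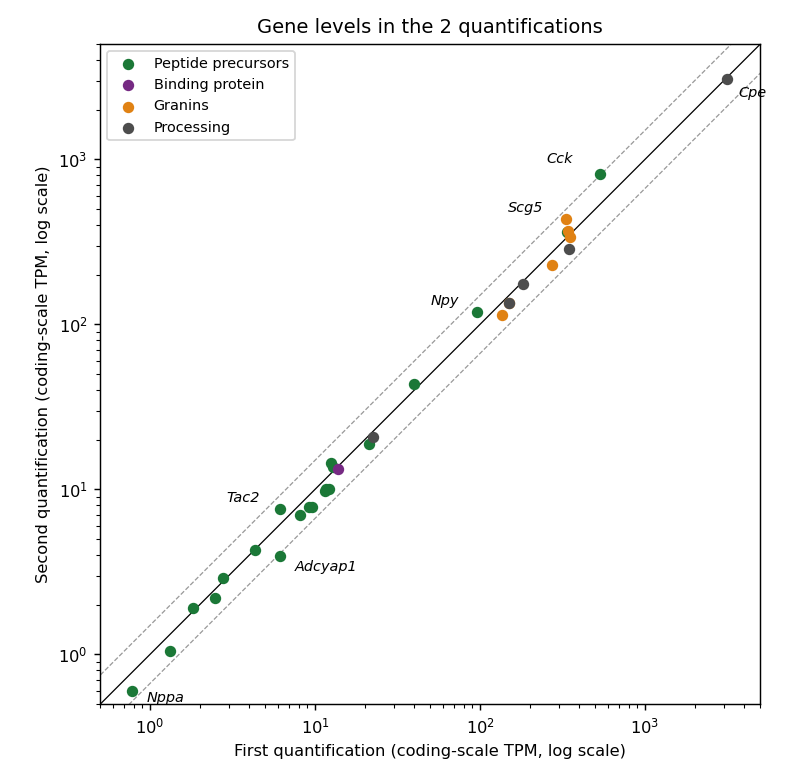
Mean level of the 33 genes over both libraries in the second quantification against the first, in TPM rescaled to nuclear protein-coding genes (log axes); the solid line marks equality and dashed lines 1.5-fold. Points follow the line from Nppa to Cpe, with Cck just beyond 1.5-fold above and Adcyap1 just beyond it below.

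Promoter windows of 300 bases around the start of each gene, from RefSeq (GRCm38.p6, the mm10 sequence), were found for 27 of the 33 genes. Vgf, Grp, Penk, Cpe, Pnoc and Crh had no entry. The windows were searched on both strands for the cAMP response element TGACGTCA, which reads the same on either strand, and for the shorter motifs TGACG and CGTCA, which are reverse complements of each other and are both contained in the whole. The whole element stood in 5 of 27 genes (18.5%), and in 2.03% of 27025 genes with such windows. A shorter motif stood in 19 of 27 (70.4%), and in 23.0% of all. A match describes the letters in the window and is not evidence of binding. The 5 matches are shown, on the strand of the gene with the element in capitals, because these genes include precursors, granins and a convertase whose levels ran from 0.795 TPM (Cartpt) to 154 TPM (Chgb). Scg2 lies at chr1:79440076-79440105 (minus strand), Chgb at chr2:132781559-132781588 (plus), Pcsk1 at chr13:75089768-75089797 (plus), Cartpt at chr13:99900777-99900806 (minus) and Sst at chr16:23890874-23890903 (minus).
Scg2: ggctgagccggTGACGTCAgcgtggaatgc
Chgb: gggctgctccgTGACGTCAgggctgagcga
Pcsk1: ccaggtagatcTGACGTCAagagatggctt
Cartpt: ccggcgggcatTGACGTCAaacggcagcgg
Sst: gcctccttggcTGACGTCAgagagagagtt

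The element began 48 bases upstream of the RefSeq start in Sst, 68 in Scg2, 72 in Chgb, 78 in Pcsk1 and 112 in Cartpt. The GENCODE genes to which the levels belong each start further upstream than the RefSeq start. The stretches shown for Scg2, Chgb, Cartpt and Sst lie inside the GENCODE gene bounds, and that of Pcsk1 outside them. The levels of these genes were 149 TPM for Sst, 154 for Chgb, 66.0 for Scg2, 9.85 for Pcsk1 and 0.795 for Cartpt (means of both libraries), so the element stood in the window of an undetected gene as well as of abundant ones.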

How the data were processed

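The authors made 2 quantifications of each library against mm10 and GENCODE M21, per the file headers and notes. The first quantification holds the authors' expected counts, TPM and, per transcript, the percent of gene TPM. The second holds the authors' estimated counts and TPM per transcript, which were summed per gene here. The aligner, tool versions and use of strand were not given in the sources used here, so overlapping genes are uncertain. Reads of CAST/EiJ alleles differ more from mm10, and alleles were not analysed here.

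Replicate 1 held 33465393 expected counts and replicate 2 held 32879872, of which 33321573 and 32740837 fell on genes. ERCC entries (143817 and 139031) stayed out of library sizes. A floor of 3 counts came to 0.211 TPM for Sst and 0.0657 TPM for Cpe in replicate 1. Reads are not independent molecules, so intervals and floors cover counting error only.

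Levels are mean ± SD (n = 2). TMM scaling and the dispersion used edgeR 4.0.16 in R 4.3.3 on expected counts rounded to whole numbers. Over 17910 genes the common biological coefficient of variation was 0.104. Size factors came from DESeq2 1.42.0. Ratios used a prior count of 0.5 and Clopper-Pearson intervals at 95%, and were tested on simulated data. Other software was matplotlib 3.10.9, pandas 2.3.3, scipy 1.17.1 and numpy 2.4.6 in Python 3.11.15. No protein table was used here, so precursor features came from coding sequences, in which overlapping basic pairs were each counted. All 33 members are named, and from each pathway list (receptors, other neuropeptides, other processing, dense-core vesicles) the 3 highest genes and each detected receptor of a member; cell type lists are given as counts and sums with defining genes. The members and lists were chosen with earlier results of these data known. The comparison had no second group, so no p-value is given.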

Additional observations from a re-analysis of the deposited data

How the results depend on the processing

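The count of detected genes (30 of 33) was 32 at a TPM of at least 0.5, 32 at 10 expected counts, 31 in the second quantification, 30 in each library alone and 19 at a TPM of at least 5. The median of 6.08 TPM became 10.5 in the second quantification, 13.8 after rescaling to nuclear protein-coding genes and 9.60 over detected genes. In single libraries it was 6.18 to 7.28. Without Penk, Nmb and Nppa, which share or overlap other genes (an alternative chosen after seeing the data, as were leaving out Cpe and counting detection in single libraries), it was 7.96. No gene was 1.5-fold apart (0 of 30) under each alternative scaling and filter tried and at 2-fold. At a limit of 25% higher in either library, 6 were past it (Sst, Crhbp, Gal, Pdyn, Cort and Scg3), against 15% of all genes. Counting intervals leaving out 1 (11 of 30) numbered 11 with size factors, 15 with total gene counts, 12 with ERCC counts and 11 of 29 in the second quantification. Precursors detected without a detected receptor (5) numbered 3 in the second quantification and 1 to 5 in single libraries. Both sets of alternatives were chosen after seeing the data. The processing sum over the precursor sum (3.07 ± 0.348) was 2.33 in the second quantification, 10.2 in expected counts, and 2.83 to 3.32 in single libraries. Without Cpe it was 0.311, on the other side of 1. Of 19 ratios between members, Pcsk2 over Scg5 changed sides, to 1.92 in expected counts. The share of the leading transcript moved beyond the replicate SD in the second quantification for 16 of 23 genes. The TPM level moved beyond it for 32 of 33. No paired analysis was possible because there is 1 group. Depth limits the lowest genes most, down to 5 counts for Nppa.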

Other observations

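Precursors outside the 33 genes were mostly at or near 0. Of 35 other neuropeptide genes listed, 7 were detected (beside 58.6% of nuclear protein-coding genes), with a median of 0.0600 TPM. Of the 7 that passed the ratio filter, 1 was at least 1.5-fold higher in replicate 2 (against 1.45% of all genes). The 3 highest were Nucb2, the nesfatin precursor (11.5 TPM in replicate 1 and 11.9 TPM in replicate 2), Apln, which encodes apelin (6.79 and 6.97 TPM), and Edn3, which encodes endothelin 3 (2.30 and 2.38 TPM).

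Most listed genes of the wider processing and release machinery were detected, beside 58.6% of nuclear protein-coding genes. Of 25 other peptidases and modifying enzymes 22 were detected, led by the lysosomal protease Ctsl (77.3 TPM in replicate 1 and 73.7 TPM in replicate 2), the aminopeptidase Npepps (59.9 and 50.6 TPM) and Mbtps1, which cleaves membrane-bound factors in the Golgi (27.6 and 28.6 TPM). Of 21 dense-core vesicle genes 20 were detected. They were led by Ptprn, a transmembrane protein of the granule (141 and 119 TPM), the calcium sensor Syt7 (120 and 126 TPM) and the priming factor Unc13a (116 and 116 TPM). None of the 22 and 20 genes that passed the ratio filter was 1.5-fold apart, against 4.17% of all genes. The remaining lists were detected as 11 of 11 genes for pyramidal neurons, 4 of 8 for Cajal-Retzius cells, 6 of 7 for thalamus, 6 of 8 for striatum and amygdala and 7 of 7 for blood and endothelium.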
